A study of Rattus norvegicus with 19 samples.

Results

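Androgens and estrogens made in the testis are reworked by a small set of enzymes, and the genes of these enzymes were followed across the Leydig cell lineage of the rat. The set was given by name and holds 10 genes: the steroid 5-alpha reductase genes Srd5a1, Srd5a2 and Srd5a3, the 3-alpha-hydroxysteroid dehydrogenase gene Akr1c14, the 17-beta-hydroxysteroid dehydrogenase genes Hsd17b2, Hsd17b4, Hsd17b10, Hsd17b11 and Hsd17b12, and the aromatase gene Cyp19a1. A gene was measured through the probe sets that carry its symbol alone in the platform annotation. Of the 10, 8 had such a probe set, among 14217 genes in all. Srd5a1 and Srd5a2 are not analysed here.

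RNA came from Sprague-Dawley rats and was read on 19 Affymetrix arrays, which give 1 signal per probe set and array on a linear scale. The groups named by the labels are Leydig cells as stem cells (n = 5), as progenitors (n = 3), at the immature stage (n = 4) and in the adult (n = 4), with stem cells of bone (n = 3) as a further group. No age, genotype, treatment, culture or isolation is given in the sources used here, so the stage cannot be told apart from differences in these. Nor is it said whether the arrays of a group came from separate animals, so p-values measure the spread between these arrays, which may be technical. Testosterone itself is not among the measurements.

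Testosterone is formed from androstenedione by the enzyme that Hsd17b3 encodes, so Hsd17b3 is given beside the set. A 5-alpha reductase can turn testosterone into dihydrotestosterone, which a 3-alpha-hydroxysteroid dehydrogenase reduces further to androstanediol. Oxidative 17-beta-hydroxysteroid dehydrogenases inactivate androgens and estrogens, and aromatase makes estrogens from androgens. Rat Leydig cells before adulthood are known for putting out androgens reduced in this way, and adult Leydig cells for testosterone.

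A few promoters are shown because they belong to genes with contrasting courses: Akr1c14, high in the middle of the lineage; Hsd17b3, highest in adult cells; Hsd17b11, which rose; and Hsd17b12, which fell. Each is the stretch just before the start in RefSeq, at the coordinates given, printed 5′ to 3′, with capitals for a GC box (GGGCGG) or a CCAAT box (CCAAT) on either strand. The Hsd17b3 window held neither.
Akr1c14, GRCr8 chr17:71083185-71083434, minus strand: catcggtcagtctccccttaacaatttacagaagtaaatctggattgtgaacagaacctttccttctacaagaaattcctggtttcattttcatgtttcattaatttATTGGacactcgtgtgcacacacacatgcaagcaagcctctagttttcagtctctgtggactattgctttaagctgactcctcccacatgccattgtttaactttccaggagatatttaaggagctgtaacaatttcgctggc
Hsd17b3, GRCr8 chr17:1032708-1032957, plus strand: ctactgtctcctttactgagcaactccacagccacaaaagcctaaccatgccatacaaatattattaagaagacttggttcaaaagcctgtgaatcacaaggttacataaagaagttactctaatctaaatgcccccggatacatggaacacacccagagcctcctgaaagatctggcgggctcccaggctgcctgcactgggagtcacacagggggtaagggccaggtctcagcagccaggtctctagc
Hsd17b11, GRCr8 chr14:6016440-6016689, plus strand: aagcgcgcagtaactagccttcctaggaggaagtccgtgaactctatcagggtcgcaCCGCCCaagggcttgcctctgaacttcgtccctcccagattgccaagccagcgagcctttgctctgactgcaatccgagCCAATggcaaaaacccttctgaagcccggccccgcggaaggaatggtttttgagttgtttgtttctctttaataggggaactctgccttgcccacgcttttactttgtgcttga
Hsd17b12, GRCr8 chr3:100568899-100569148, minus strand: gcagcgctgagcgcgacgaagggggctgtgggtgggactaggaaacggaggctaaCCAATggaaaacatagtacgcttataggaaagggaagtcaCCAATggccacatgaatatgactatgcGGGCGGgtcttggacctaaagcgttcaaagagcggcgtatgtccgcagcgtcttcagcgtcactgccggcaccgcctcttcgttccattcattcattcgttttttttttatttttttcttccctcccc

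RefSeq promoters were matched for 6 of the 8 measured members, all but Hsd17b2 and Cyp19a1, and for Hsd17b3. The motif of Nr5a1, a regulator of steroid-forming genes, was searched as CAAGGTCA and CAAGGCCA on both strands and lay in 0 of these windows. Of all 33469 windows of this length, 3.17% held either form. A CCAAT box lay 143 bases before the start of Akr1c14, on the opposite strand, 114 before that of Hsd17b11, 195 and 155 before that of Hsd17b12, and 43 before that of Hsd17b10, whose window is not printed. It was found in 34.02% of all windows and the GC box in 30.5%. The windows of Akr1c14 and Hsd17b3 held 3 and 2 CpG pairs, those of Hsd17b11 and Hsd17b12 12 and 18, and the median window 5. A motif match describes these letters and does not show binding.

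Median signals ran from 18.9 to 36.6 per array. On each array 29.1% to 47.3% of probe sets were below 16, a range treated as dim since no detection calls were used. As a check of the labels, 6 Leydig cell genes had a summed signal of 13620 to 21570 (progenitor), 11290 to 21960 (immature) and 19470 to 30450 (adult). The sum was only 283 to 1511 for stem Leydig arrays, where Cyp17a1 and Lhcgr were under 16 throughout and Star gave 243 to 1446 of it. Bone stem replicate 1 summed to 588, with Star at 442, against 78.7 and 71.8 in the others. Progenitor replicate 3 had the highest 3′ to 5′ ratio of beta-actin signals (6.35, elsewhere 1.03 to 2.95). Immature replicate 4 had a higher mean correlation with the progenitor arrays (0.972) than with its own group (0.959).

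Marker sums of other cell types differed between groups too, and in mixed samples fewer cells of a type and less RNA per cell cannot be told apart. The following ranges go from stem through progenitor, immature and adult to bone stem cells. Leukocyte genes (10 of 10 measured) summed to 498 to 983, 2642 to 3155, 1381 to 3105, 890.2 to 2342 and 9876 to 12430. Germ cell genes (8 of 10) summed to 49.8 to 54.9, 167 to 372, 452 to 1130, 1368 to 3173 and 40.3 to 196. Sertoli cell genes (6 of 8, without Sox9 and Fshr) summed to 448 to 739, 588 to 863, 867 to 1152, 1436 to 2452 and 152 to 197. Of these genes Amh was under 16 in every group but the progenitors, which does not show that Sertoli cells were absent. Endothelial genes (7 of 8) summed to 134 to 240.1, 904 to 1763, 266 to 752, 551 to 2642 and 202 to 222. Smooth muscle genes (6 of 6) summed to 5433 to 11850, 353 to 419, 215 to 398, 276 to 1320 and 7933 to 11680. Erythroid genes (2 of 5) summed to 4.69 to 12.6, 3304 to 5068, 2411 to 5180, 262 to 688 and 4.896 to 28.4. Germ cell and Sertoli sums were thus highest in adult cells, and erythroid sums in progenitor and immature cells. Single genes carried much of these sums, which therefore do not count cells. Among Sertoli genes Cldn11 read 976 to 1999 on adult arrays, and Clu 386.5 to 690.6 on stem arrays. Among germ cell genes Odf1 read 369.7 to 1865 on adult arrays. Only Sycp3 of the germ cell genes went clearly the other way, from 103.7 to 126.1 on progenitor to 13.56 to 31.55 on adult arrays.

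**Figure D1:**
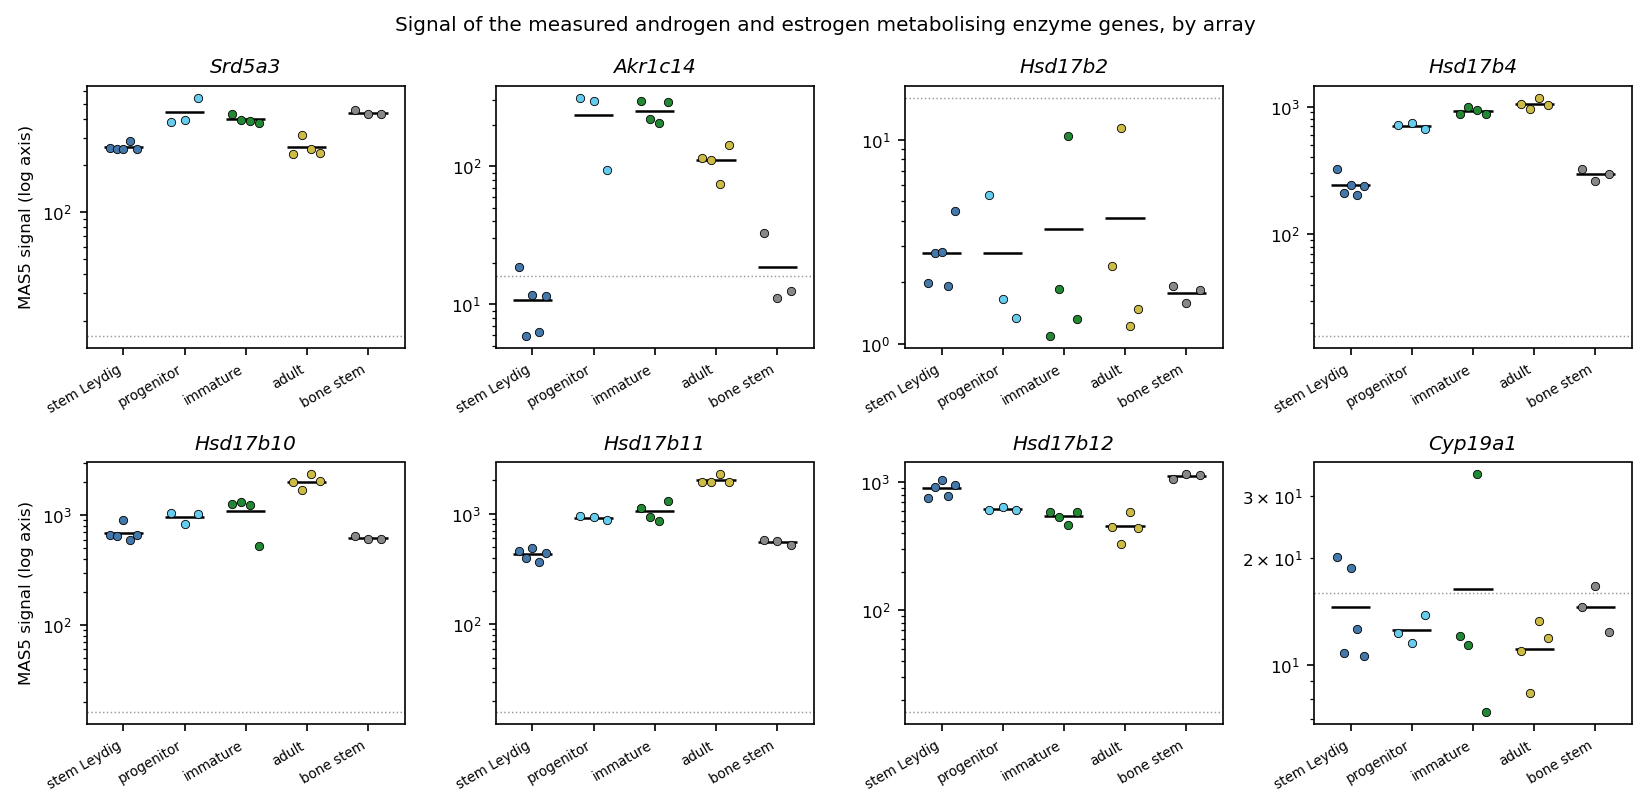
Signal of the 8 measured genes on each of the 19 arrays, by group, on log axes that differ between panels. Points are arrays, bars are group means and the dotted line marks a signal of 16. Akr1c14 is high in progenitor and immature cells, Hsd17b10 and Hsd17b11 are highest in adult cells, and Hsd17b2 lies under the line on every array.

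Akr1c14 had the steepest course of the set. It encodes the rat 3-alpha-hydroxysteroid dehydrogenase, which reduces dihydrotestosterone to androstanediol. Its brightest probe set (1396933_s_at) read 18.7, 5.91, 11.7, 6.25 and 11.5 in stem Leydig replicates 1 to 5. It read 313, 298 and 93.2 in the progenitor and 297, 220.0, 205 and 291 in the immature replicates. Adult arrays gave 116, 111, 74.5 and 142. Every progenitor and immature array was above every stem array, the adult arrays lay below the immature ones without overlap, and progenitor replicate 3 lay among the adult arrays. Bone stem arrays read 32.6, 11.04 and 12.4, with replicate 1 the highest, as it was for the Leydig genes.

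The mean Akr1c14 signal was 10.8 ± 5.195 (SD, n = 5) at the stem stage and 235 ± 123 (SD, n = 3) at the progenitor stage. On the log2(signal + 16) scale, which understates the change of a dim gene, it rose by 3.08 ± 0.30 (SE; limma adjusted p = 4.74e-08). Between progenitor and immature cells the log2 change was 0.25 ± 0.31 and did not pass (limma adjusted p = 0.847). From immature cells, at 253 ± 47.7 (SD, n = 4), it fell to 111 ± 27.9 (SD, n = 4) in the adult, a log2 change of -1.10 ± 0.29 (limma adjusted p = 0.00847). Adult against progenitor cells, at -0.85 ± 0.31, just missed the threshold (limma adjusted p = 0.0509). It passed without progenitor replicate 3, at -1.37 (limma adjusted p = 0.000512), and without adult replicate 4, at -0.97 (limma adjusted p = 0.0451). Erythroid marker sums were lower and germ cell and Sertoli sums higher in adult cells as well. Leukocyte, endothelial and smooth muscle sums overlapped between immature and adult arrays. Among the leukocyte genes Ptprc, Laptm5 and Tyrobp were lower and Cd163 higher in the adult, without overlap. The part of these other cell types in the fall was not tested.

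Akr1c14 was read by 3 probe sets. Genes of this family are alike enough in sequence that a probe set may read more than 1 of them. Probe set 1370708_a_at averaged 7.05, 190.5, 228 and 91.8 from the stem to the adult stage, and 1370563_at averaged 5.45, 215, 206 and 76.1. Both rose at the first step, by 3.01 ± 0.31 and 3.36 ± 0.30 (limma adjusted p = 1.52e-07 and 2.02e-08). Both fell at the last, with log2 changes of -1.16 ± 0.30 and -1.23 ± 0.29 (limma adjusted p = 0.00838 and 0.00452). Adult against progenitor cells passed for 1370563_at (-1.22 ± 0.32, limma adjusted p = 0.00696) and not for 1370708_a_at (-0.76 ± 0.33, limma adjusted p = 0.104). Stem replicate 1 was the brightest stem array on all 3 probe sets, at 18.7, 18.8 and 18.9, and progenitor replicate 3 the dimmest progenitor array.

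**Figure D2:**
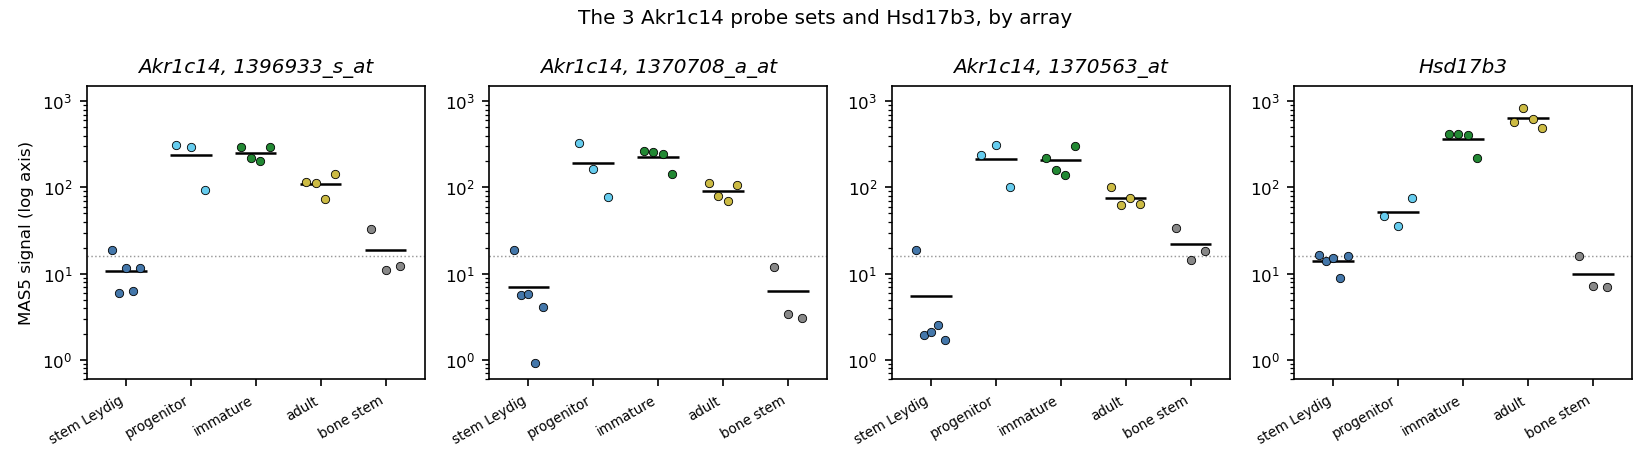
Signals of the Akr1c14 probe sets and of Hsd17b3 on each array, by group, on log axes. Points are arrays, bars are group means and the dotted line marks a signal of 16. The Akr1c14 panels share high progenitor and immature levels and a lower adult level, while Hsd17b3 is highest in adult cells.

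Hsd17b3 took another course. It read 16.4, 13.9, 15.2, 8.85 and 16.01 in stem Leydig cells, at or near the dim range. Progenitor arrays read 46.7, 35.8 and 74.8, immature arrays 417, 419, 410.2 and 218, and adult arrays 576, 838, 629 and 489.9. No stage overlapped the one before it, and immature replicate 4 was the lowest of its group. Its log2 changes over the 3 steps were 1.15 ± 0.22, 2.48 ± 0.23 and 0.78 ± 0.21 (limma adjusted p = 0.000268, 1.46e-05 and 0.0109). At the progenitor stage, where Akr1c14 had made its rise, Hsd17b3 averaged 52.5 ± 20.1 (SD, n = 3), and 633 ± 148 (SD, n = 4) in the adult.

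Whether both genes changed unequally was tested on log2(Akr1c14 + 16) minus log2(Hsd17b3 + 16) within each array, which does not show which gene has more RNA. The stem arrays gave 0.10, -0.45, -0.17, -0.16 and -0.22, and the progenitor arrays 2.39, 2.60 and 0.27. The immature arrays gave -0.47, -0.88, -0.95 and 0.39, and the adult arrays -2.17, -2.75, -2.83 and -1.68. Stem and progenitor arrays did not overlap, nor did immature and adult arrays, while immature replicate 4 lay above progenitor replicate 3.

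At the stem stage both probe sets were in or near the dim range, where the pseudocount holds their difference near 0, so the value of 1.93 for progenitor minus stem cells is not read as unequal change. The change of -2.23 from progenitor to immature cells did not pass (exact two-sided permutation test over arrays, p = 0.0571), where 35 arrangements allow no p below 0.0286. At the last step it changed by -1.88 (exact permutation p = 0.0286, adjusted p = 0.0326 over 8 such tests). This p is the smallest that 70 arrangements allow. The 8 tests include those of Hsd17b2 given below, which are set by Hsd17b3 alone and all stood at their smallest p. The adjusted p is lower for their presence. Adult and progenitor cells differed by -4.11 (exact permutation p = 0.0286, adjusted p = 0.0326), with each of the 4 adult arrays below each of the 3 progenitor arrays. In the last step the adjusted p was above 0.05 without any 1 adult array. It depends there on the other tests adjusted with it, some of which then have fewer arrangements. Between adult and progenitor cells the adjusted p was above 0.05 without any 1 array of either group, where fewer arrangements raise it. The value stayed between -4.851 and -3.686 in this comparison.

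**Figure D3:**
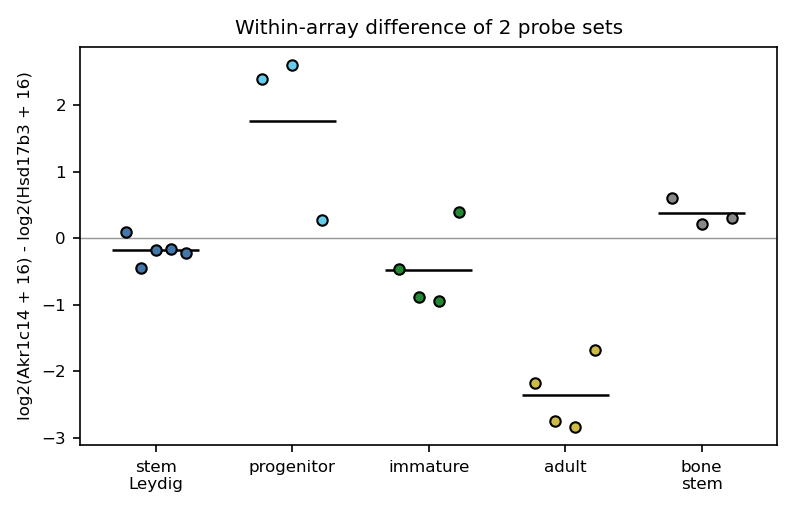
Difference log2(Akr1c14 + 16) minus log2(Hsd17b3 + 16) on each of the 19 arrays, by group, with bars for group means. Means are -0.18 (stem), 1.75 (progenitor), -0.48 (immature) and -2.36 (adult).

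Srd5a3 also stood highest in the middle of the lineage. It belongs to the steroid 5-alpha reductase family and is best known for turning polyprenol into dolichol, the lipid carrier of protein glycosylation. Stem arrays read 259.5, 256, 254, 286 and 254, and progenitor arrays 383, 393 and 545. Immature arrays read 432, 392, 386 and 374, and adult arrays 238, 314, 254 and 241. Progenitor and immature arrays all lay above the stem and adult arrays. Srd5a3 rose by 0.70 ± 0.12 on the log2 scale at the first step (limma adjusted p = 7.83e-05) and fell by 0.58 ± 0.12 at the last (limma adjusted p = 0.000967). Adult cells were below progenitor cells by 0.71 ± 0.12 (limma adjusted p = 0.000197). Between adult and stem cells no difference beyond the spread was detected (-0.01 ± 0.11, limma adjusted p = 0.966). As for Akr1c14, erythroid sums were highest at the Leydig stages where Srd5a3 was high. Bone stem arrays read Srd5a3 at 452.7, 428.9 and 428.5, with erythroid sums of 4.896 to 28.37. The part of erythroid cells was not tested.

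Hsd17b4 encodes a multifunctional peroxisomal enzyme that oxidises estradiol and takes part in fatty acid oxidation. It read 322, 209.7, 244, 201 and 238 at the stem and 714, 749 and 662 at the progenitor stage. Immature arrays gave 880.4, 984, 939.8 and 869.7, and adult arrays 1041, 952, 1169 and 1032. All later arrays were above the stem arrays and all immature above the progenitor arrays, while immature and adult arrays overlapped. Its first step was a rise of 1.501 ± 0.13 (limma adjusted p = 8.28e-09). The next steps, 0.37 ± 0.13 and 0.19 ± 0.12, did not pass, though adult exceeded progenitor cells by 0.55 ± 0.13 (limma adjusted p = 0.00387). Bone stem arrays read 324, 262 and 296, within or near the stem Leydig range. Leukocyte, endothelial and erythroid sums were higher and the smooth muscle sum lower in progenitor than in stem cells, beside the first-step changes of Hsd17b4, Akr1c14, Srd5a3, Hsd17b11 and Hsd17b12, and germ cell and Sertoli sums were higher in adult than in progenitor cells. Their part in these changes was not tested.

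Hsd17b11, whose product sits on lipid droplets and oxidises androstanediol to androsterone, rose at both ends of the lineage. It read 456, 396, 485, 366 and 438 at the stem and 946, 941 and 876 at the progenitor stage. Immature arrays gave 1125, 925, 860.0 and 1308, and adult arrays 1918, 1942, 2269 and 1951. The adult arrays were above all others, and progenitor and immature arrays overlapped. The first step was 1.08 ± 0.13 (limma adjusted p = 1.13e-06) and the last 0.94 ± 0.13 (limma adjusted p = 1.48e-05), with 0.17 ± 0.14 between them (limma adjusted p = 0.7). Adult exceeded progenitor cells by 1.12 ± 0.14 (limma adjusted p = 2.97e-06) and stem cells by 2.20 ± 0.12 (limma adjusted p = 3.91e-12). Bone stem arrays read 579.8, 568 and 520.4, all above the stem Leydig arrays.

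Hsd17b10 encodes a mitochondrial dehydrogenase of steroids that also serves isoleucine breakdown. It read 664, 644, 897, 598 and 664 at the stem and 1041, 837 and 1035 at the progenitor stage. Immature arrays gave 1264, 1308, 1243 and 525, adult arrays 2015, 1696, 2358 and 2040, and bone stem arrays 653, 613 and 605. Adult arrays lay above all others, and immature replicate 4 lay below every stem array. The last step was a rise of 0.97 ± 0.21 (limma adjusted p = 0.0023), and adult exceeded progenitor cells by 1.05 ± 0.23 (limma adjusted p = 0.00178). The first, 0.48 ± 0.22, did not pass (limma adjusted p = 0.095), but did after quantile normalization (limma adjusted p = 0.0299). Germ cell and Sertoli sums were highest in adult cells as well, as for Hsd17b11, and their part in these rises was not tested.

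Hsd17b12 went the other way. Its product is a ketoacyl reductase in the making of very long fatty acids that can also reduce estrone. It read 753, 925, 1049, 784 and 956 at the stem and 603, 637 and 602 at the progenitor stage. Immature arrays gave 584, 539.6, 463 and 586, adult arrays 449, 331, 590.3 and 438, and bone stem arrays 1055, 1151 and 1133. All arrays of both stem groups were above all later arrays. It fell by 0.52 ± 0.15 on the log2 scale at the first step (limma adjusted p = 0.00826), and adult cells were below stem cells by 0.98 ± 0.14 (log2; limma adjusted p = 4.4e-06). The steps of -0.18 ± 0.15 and -0.28 ± 0.14 did not pass. The last of these passed without adult replicate 3 (-0.41, limma adjusted p = 0.0424) and after quantile normalization (limma adjusted p = 0.0302), and was -0.14 without adult replicate 2. Adult against progenitor cells passed (-0.46 ± 0.15, limma adjusted p = 0.0353), but not with median centring (limma adjusted p = 0.353), or without any 1 of progenitor replicates 1 to 3 or adult replicates 1, 2 and 4 (0.0604 to 0.124).

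The remaining genes were dim. Hsd17b2, whose product oxidises testosterone and estradiol, read 1.09 to 11.4 over the 19 arrays and passed in no comparison. Its within-array difference to Hsd17b3 is set by Hsd17b3 alone at such signals. It changed by -1.16, -2.43 and -0.75 over the 3 steps and by -3.18 from progenitor to adult cells, which says nothing of Hsd17b2 itself.

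Cyp19a1, the aromatase gene, had 3 probe sets. The brightest (1382425_at) read 10.6 to 20.1 on stem arrays, 11.5 to 13.8 on progenitor arrays, 7.33 to 34.6 on immature arrays, 8.29 to 13.3 on adult arrays and 12.4 to 16.7 on bone stem arrays, and passed in no comparison. A dimmer one (1379643_at) read 9.03 to 28.3 on immature and 4.31 to 10.8 on adult arrays, which overlap, and was called lower in the adult (-0.47 ± 0.15, limma adjusted p = 0.0318). It was also called lower in adult than in progenitor cells (-0.47 ± 0.16, limma adjusted p = 0.0433), where progenitor arrays read 12.4 to 21.1 and did not overlap. Signals this dim do not show whether the gene is expressed.

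**Figure D4:**
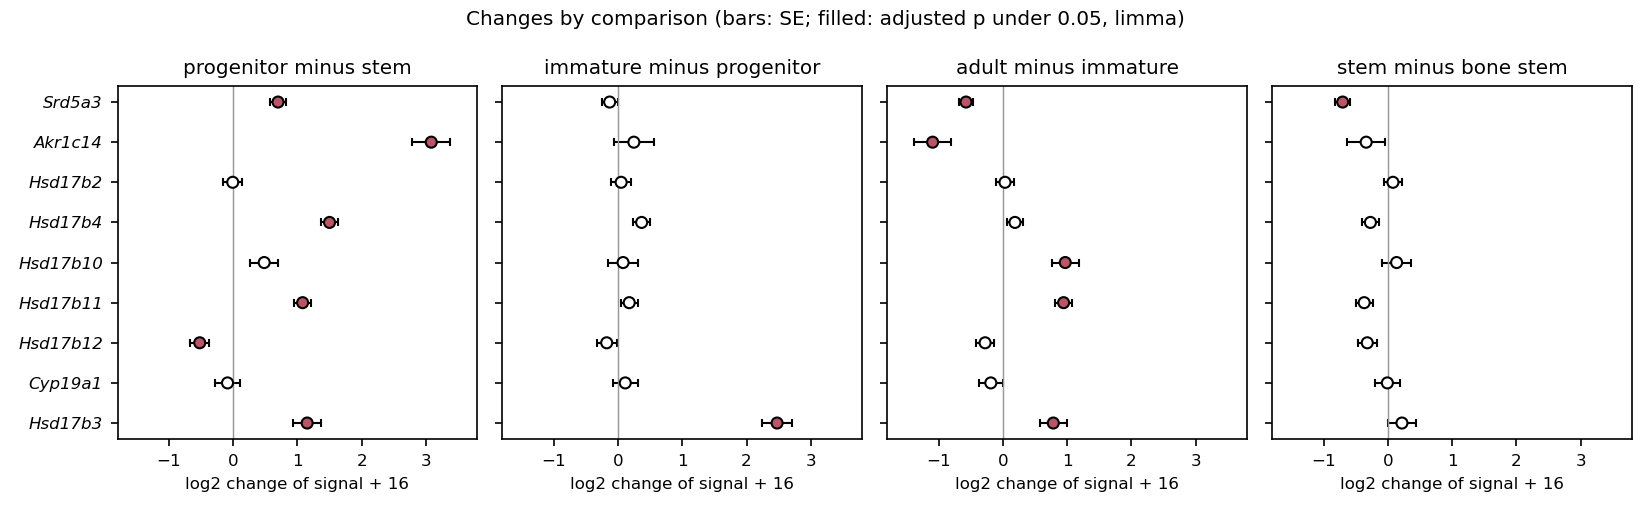
Log2 changes of signal + 16 for the 8 measured genes and Hsd17b3 in 4 comparisons, with bars for the SE. Filled points passed an adjusted p under 0.05 in limma. From progenitor to immature cells Hsd17b3 is the filled point.

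By count, 4 of the 8 members rose from stem to progenitor cells (Srd5a3, Akr1c14, Hsd17b4 and Hsd17b11) and 1 fell (Hsd17b12), where 26.8% of all genes were called higher and 18.5% lower. From progenitor to immature cells limma called 0 of 8, and 1, Hsd17b4, had an unadjusted p under 0.05, against 1.33% higher and 0.612% lower over all genes. These shares were 3.47% and 2.86% without immature replicate 4, 1.17% and 0.401% without progenitor replicate 3, and 0.485% to 0.703% and 0.218% to 0.38% without any 1 of progenitor replicates 1 and 2 and immature replicates 1 to 3, with 0 of the 8 members called in each case. From immature to adult cells 2 rose (Hsd17b10 and Hsd17b11) and 2 fell (Srd5a3 and Akr1c14), against 12.0% and 17.3%. Adult against progenitor cells had 3 higher (Hsd17b4, Hsd17b10 and Hsd17b11) and 2 lower (Srd5a3 and Hsd17b12), against 14.0% and 19.6%. Adult against stem cells had 4 higher (Akr1c14, Hsd17b4, Hsd17b10 and Hsd17b11) and 1 lower (Hsd17b12), against 27.7% and 26.0%. These comparisons share arrays and are not independent of each other. The median log2 change of the 8 was 0.59, 0.095 and -0.079 over the 3 steps, and that of all probe sets 0.075, 0.006 and -0.069.

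Stem Leydig cells were also set against bone stem cells. Of the 8 members, 0 were higher and 1 was lower in stem Leydig cells, beside 9.73% and 14.1% of all genes (6.46% and 9.88% without bone stem replicate 2, 6.37% and 9.95% without replicate 3). The lower one was Srd5a3 (-0.70 ± 0.12, limma adjusted p = 0.000199), which read 453, 429 and 428 in bone stem cells, above every stem Leydig array. Akr1c14 differed by -0.34 ± 0.30 (limma adjusted p = 0.523), and by -0.070 without bone stem replicate 1. Its other probe sets gave 0.032 (1370708_a_at) and -0.86 ± 0.30 (1370563_at, limma adjusted p = 0.0556). Hsd17b11 differed by -0.37 ± 0.13 (limma adjusted p = 0.0536). Without stem replicate 3 Hsd17b11 passed (limma adjusted p = 0.0316), and without stem replicate 1 Hsd17b4 did (-0.37, limma adjusted p = 0.0235). The beta-actin ratio was 1.03 to 1.84 on stem Leydig and 2.38 to 2.95 on bone stem arrays, and the leukocyte sum was higher in bone stem cells, so RNA quality and other cells cannot be told apart from the kind of cell.

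Related enzymes were counted in lists. Of 24 measured genes of other hydroxysteroid dehydrogenases and reductases, 11 rose and 1 fell (Akr1c3) from stem to progenitor cells, 1 rose and 1 fell at the next step, and 11 rose and 0 fell from immature to adult cells. The shares of all genes called higher and lower, against which these and the following counts are set, were 26.8% and 18.5% at the first step, 1.33% and 0.612% at the second and 12.0% and 17.3% at the last. Akr1c19, a relative of Akr1c14, averaged 28.4 ± 10.4, 387 ± 32.9, 443 ± 63.97 and 792 ± 144 (SD) from the stem to the adult stage. Akr1c14 fell at the last step, and Akr1c19, named there after its values were seen, rose by 0.81 ± 0.18 (limma adjusted p = 0.00292). Akr1b7, an aldose reductase relative, was at 1.898 ± 2.05 at the stem and 143 ± 8.58 at the progenitor stage. It then fell by 1.14 ± 0.20 on the log2 scale to 57.3 ± 15.5 in immature cells (limma adjusted p = 0.00417). Hsd17b8, a mitochondrial enzyme that can oxidise estradiol, averaged 109.7 ± 11.8, 332 ± 80.97, 339.9 ± 67.1 and 674 ± 64.99 and rose at the last step by 0.97 ± 0.15 (limma adjusted p = 6.37e-05). Hsd11b1, which interconverts glucocorticoids, averaged 302 ± 162, 661 ± 37.2, 1838 ± 284 and 3833 ± 794 and rose by 1.44 ± 0.32 between progenitor and immature cells (limma adjusted p = 0.0258).

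Of 19 measured conjugating and hydroxylating enzyme genes, 3 rose and 2 fell at the first step, 1 rose (Cyp2a3) at the second, and 4 rose and 1 fell (Cyp7b1) at the last, beside 26.8% and 18.5%, 1.33% and 0.612%, and 12.0% and 17.3% of all genes. Sult1a1, a sulfotransferase gene, read 21.3, 15.2, 14.2, 20.4 and 15.8 on stem and 1651, 1700 and 1560 on progenitor arrays, a log2 rise of 5.63 ± 0.17 (limma adjusted p = 2.02e-15). Cyp2a1, which encodes a testosterone hydroxylase, read 21.6, 10.5, 37.8 and 21.7 on immature and 858, 474, 1190 and 956 on adult arrays, a log2 rise of 4.48 ± 0.24 (limma adjusted p = 1.59e-10). Neither pair of groups overlapped. Sts, the gene of the sulfatase that frees steroids from sulfate, was lower in stem Leydig than in bone stem cells, by -1.40 ± 0.18 (limma adjusted p = 7.08e-06).

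**Figure D5:**
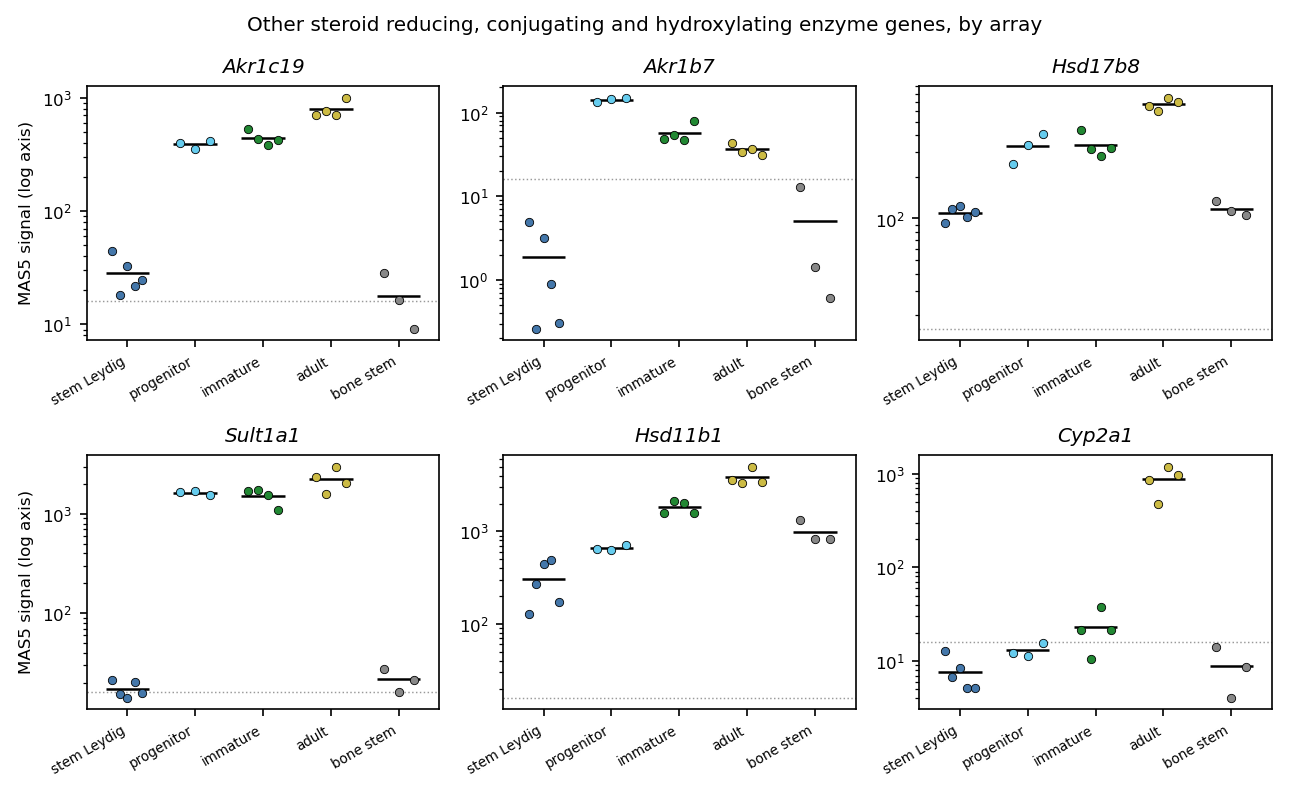
Signals of 6 other enzyme genes on each array, by group, on log axes that differ between panels. Points are arrays, bars are group means and the dotted line marks a signal of 16. Akr1c19, Hsd17b8, Hsd11b1 and Cyp2a1 are highest in adult cells and Akr1b7 in progenitor cells.

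Of 12 measured genes of steroid synthesis and its regulators, 10 rose and 1 fell (Tspo) at the first step, 1 rose (Hsd17b3) at the second, and 5 rose and 0 fell at the last, where 26.8% and 18.5%, 1.33% and 0.612%, and 12.0% and 17.3% of all genes were called higher and lower. Cyp17a1, which makes androgens from progestins, averaged 5127 ± 1395 at the progenitor and 4898 ± 1488 at the immature stage, a log2 change of -0.09 ± 0.24 that did not pass (limma adjusted p = 0.948). Of 4 receptor and binding protein genes, 2 rose at the first step (Shbg and Esr1), none passed at the second, and 1 fell at the last (Shbg). Esr1, an estrogen receptor gene, read 1.37, 1.12, 1.97, 1.04 and 1.04 on stem and 16.6, 12.8 and 9.901 on progenitor arrays, mostly in the dim range, and 29.01, 42.6, 33.5 and 37.6 on adult arrays. Over the other comparisons, the 9 higher and 1 lower dehydrogenases and reductases between adult and progenitor cells compare with 4 and 1 genes of steroid synthesis, 5 and 1 of conjugation and hydroxylation, and 1 and 0 receptors, beside 14.0% and 19.6% of all genes. Between adult and stem cells the same lists, in the same order, had 14 and 1, 11 and 0, 5 and 3, and 1 and 0, beside 27.7% and 26.0%. Between stem Leydig and bone stem cells they had 1 and 3, 2 and 2, 2 and 2, and 0 and 0, beside 9.73% and 14.1%. The median log2 changes of the 4 lists, in that order, were 0.223, 3.195, 0.028 and 0.259 at the first step, 0.011, -0.060, 0.119 and 0.061 at the second and 0.331, 0.495, -0.041 and 0.059 at the last, beside the medians over all probe sets given above.

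As a description of which genes ran most like Akr1c14, 10715 genes were ranked by Pearson r with it over the 19 arrays. The first 5 were Dhx16 (r = 0.973), Gbp7 (r = 0.971), Ecm2 (r = 0.968), Rev3l (r = 0.966) and Fam13c (r = 0.965). All points share the same arrays, and both stem groups lie far below the later stages in Akr1c14. Over the 11 progenitor, immature and adult arrays r was 0.916, 0.826, 0.844, 0.809 and 0.875 in the same order. Ecm2, for example, averaged 11.2, 455, 473 and 188 from the stem to the adult stage. Dhx16, with the highest r, averaged only 85.9, 140.1, 138.4 and 113.4, since r does not measure the size of a change.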

How the data were processed

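Expression was measured on 19 arrays. The deposited values are signal intensities on a linear scale, which the submitters' processing notes credit to MAS5 and GCOS, with no version given in the sources used here. The 57 control probe sets were left out. Signals were taken as log2(signal + 16), and 5 group means were fitted to all arrays in limma 3.58.1 (R 4.3.3) with an intensity trend. P-values were adjusted by Benjamini-Hochberg over 31042 probe sets, with calls at an adjusted p under 0.05. The brightest probe set stood for a gene. Percentages over all genes count 1 probe set for each of 14217 genes. The fit was also run on simulated data with independent noise and large changes, unlike these arrays, so no conclusion is drawn from it. Within-array differences were compared by exact permutation in Python 3.11.15, adjusted over 8 tests. Promoters came from RefSeq, build GRCr8. The number of arrays limits the precision.

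The members, gene lists and tests were chosen with earlier results of these data known. All measured members were named. Of the related lists, Hsd17b3, Cyp17a1, Star, Cyp11a1 and Esr1 could be named, with the 2 called genes of smallest adjusted p per list and comparison, and counts of 5 or fewer were named after their values were seen. Same-numbered arrays of different groups did not deviate together more than others (33 pairs, median r = 0.004, highest 0.264, 5 above 0.1). The 110 pairs with other numbers had a median r of -0.006, a highest of 0.263 and 14 above 0.1. The number therefore served as a block only as an alternative. The other alternatives were quantile normalization, median centring, pseudocounts of 1 and 64, dropping the dimmest 40% of probe sets, no trend, array weights, fits of single pairs of groups, the mean over a gene's probe sets, leaving out arrays, and averaging close pairs of arrays. The pairs were replicates 2 and 3 of the immature and of the bone stem arrays. Whether they are repeats of the same sample is not said. With the pairs averaged, genes called higher and lower went from 189 and 87 to 79 and 26 (immature minus progenitor). For stem minus bone stem cells they went from 1384 and 2007 to 897 and 1370. Planned tests with Srd5a1 were not run.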

Additional observations from a re-analysis of the deposited data

Results flagged for a closer look

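A single array stood far from the others of its group in 7 of 27 sets of 4 or 5 arrays (the 8 members and Hsd17b3 in stem, immature and adult cells), where chance flags about 1 in 20. In immature replicate 4 Hsd17b10 was at 525.3, against 1243 to 1308 on the other immature arrays, and Hsd17b3 at 218.4, against 410.2 to 419. Stem replicate 3 was highest for Hsd17b10, at 896.7 against 598 to 664, and stem replicate 4 for Srd5a3, at 285.7 against 253.5 to 259.5. Adult replicate 3 was highest for Hsd17b11, at 2269 against 1918 to 1951. The dim gene Hsd17b2 was at 10.36 in immature replicate 3, against 1.09 to 1.84, and at 11.44 in adult replicate 2, against 1.22 to 2.39. The cause of these differences was not tested.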

How the results depend on the processing

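Single members were refitted under alternative settings 524 times, of which 483 kept direction and side of the threshold, 4 lost a call (Hsd17b12, adult minus progenitor), 17 gained one and 20 turned sign. Of 376 refits that leave out 1 array, 338 kept both, 6 lost a call (the same one), 5 gained one and 27 turned sign. No called change turned sign. From stem Leydig to bone stem cells the number of members called was 1, and 2 with quantile normalization, without the dimmest probe sets or with only these groups, 4 with array weights, and 1 to 2 without 1 array. Median centring moved the median of all probe sets from 0.075 to -0.150 (progenitor minus stem), -0.069 to 0.111 (adult minus immature), -0.055 to 0.122 (adult minus progenitor) and 0.049 to -0.044 (stem minus bone stem). The share of called genes that were higher went from 59.2% to 38.2%, 41.0% to 64.3%, 41.6% to 60.98% and 40.8% to 30.4%.

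Uncalled log2 changes that turned sign were, with array weights, Akr1c14 -0.197 (immature minus progenitor), Hsd17b2 0.011 (progenitor minus stem), Hsd17b2 -0.032 (immature minus progenitor), Hsd17b2 -0.017 (adult minus immature), Hsd17b2 -0.049 (adult minus progenitor) and Hsd17b2 -0.038 (adult minus stem). With quantile normalization they were Srd5a3 0.044 (adult minus stem), Hsd17b2 -0.007 (immature minus progenitor) and Cyp19a1 0.023 (adult minus progenitor). With median centring they were Hsd17b2 -0.014 (stem minus bone stem) and Cyp19a1 0.099 (adult minus progenitor). With close pairs averaged they were Hsd17b2 -0.008 (immature minus progenitor) and Hsd17b10 -0.028 (immature minus progenitor). With the mean over probe sets they were Cyp19a1 0.056 (progenitor minus stem) and Cyp19a1 0.080 (stem minus bone stem). Without both progenitor replicate 3 and immature replicate 4 they were Srd5a3 0.052 (immature minus progenitor), Akr1c14 -0.341 (immature minus progenitor), Hsd17b2 0.048 (progenitor minus stem) and Hsd17b2 -0.021 (adult minus immature), while Hsd17b10 and Cyp19a1 kept their sign at 0.439 and 0.279 (immature minus progenitor). Leaving out 1 array at a time gave ranges of -0.219 to 0.027 for Srd5a3 (immature minus progenitor), -0.093 to 0.032 for Srd5a3 (adult minus stem), -0.273 to 0.523 for Akr1c14 (immature minus progenitor), -0.102 to 0.048 for Hsd17b2 (progenitor minus stem), -0.102 to 0.143 for Hsd17b2 (immature minus progenitor), -0.127 to 0.181 for Hsd17b2 (adult minus immature), -0.079 to 0.175 for Hsd17b2 (adult minus progenitor), -0.085 to 0.139 for Hsd17b2 (adult minus stem), -0.040 to 0.390 for Hsd17b10 (immature minus progenitor), -0.126 to 0.247 for Cyp19a1 (immature minus progenitor), -0.325 to 0.048 for Cyp19a1 (adult minus immature) and -0.072 to 0.043 for Cyp19a1 (stem minus bone stem). The cause was not tested.

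Under a replicate block, the uncalled Cyp19a1 change from bone stem to stem Leydig cells turned to 0.094. Between adult and progenitor cells the replicate block ended the call of Hsd17b12 (limma adjusted p = 0.0693) and gave one for Akr1c14 (-0.885, limma adjusted p = 0.0218), which pseudocount 64, the filter, array weights and the mean over probe sets also did. It changed no other member's call. Paired within replicate numbers, the within-array difference of Akr1c14 to Hsd17b3 was 1.926, -1.879 and -4.335 (progenitor minus stem, adult minus immature, adult minus progenitor) and that of Hsd17b2 -1.083, -2.596, -0.751 and -3.232 (the same with immature minus progenitor second), with too few arrangements to pass.

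Without both progenitor replicate 3 and immature replicate 4, these differences were 2.675, -1.590 and -4.851 and -0.881, -2.874, -0.584 and -3.458, and also lost their calls with fewer arrangements. Leaving out 1 array gave 1.509 to 2.675, -2.105 to -1.590 and -4.851 to -3.686 for Akr1c14 and -1.299 to -0.881, -2.707 to -2.289, -0.885 to -0.584 and -3.458 to -3.040 for Hsd17b2. The mean over probe sets gave Akr1c14 -2.256 (immature minus progenitor), which then passed. Pseudocount 1 gave Hsd17b2 -2.738 (immature minus progenitor) and -0.667 (adult minus immature), and averaged pairs -2.412 (immature minus progenitor), none of which passed. Dim signals limit what Hsd17b2 and Cyp19a1 can show.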
